A study of Rattus norvegicus with 31 samples.

Results

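The genes described here in rat kidney cortex and colon are 5 regulators of mitochondrial gene expression: the estrogen-related receptors Esrrg and Esrra, their coactivator Ppargc1a, the nuclear respiratory factor Nrf1 and the mitochondrial DNA-binding factor Tfam. They were taken by symbol from a table of 20207 genes, and all 5 were found and passed the filter on low counts in both tissues. The series holds 31 RNA libraries of total RNA from both tissues in 3 groups: normal controls (NC), a model of high salt intake (HS), and rats on the same kind of diet that also received calcitriol (CAL), the hormone made from vitamin D that acts through the vitamin D receptor. Group sizes in the cortex were 5 (NC), 4 (HS) and 6 (CAL), and in the colon 5, 5 and 6. High salt was thus common to HS and CAL. The labels used here give no strain, sex, age, salt content, calcitriol dose or duration. The genes were chosen from earlier results of these same libraries, and which comparison chose them is not recorded. Every fold change and adjusted p below is therefore a description of where a gene lay among all tested genes, not independent evidence.

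The estrogen-related receptors are orphan nuclear receptors: they resemble the estrogen receptors but need no known natural ligand, and they bind single half-sites in DNA. Ppargc1a encodes PGC-1 alpha, a coactivator that docks on Esrra, Esrrg and other nuclear receptors and raises transcription of genes for oxidative phosphorylation, the citric acid cycle and fatty acid oxidation. Nrf1 encodes a transcription factor for nuclear genes of the respiratory chain, and Tfam encodes the protein that packages mitochondrial DNA and starts its transcription. In the kidney this circuit is known for the tubule segments that spend much ATP on sodium reabsorption. The symbol Nrf1 stands here for nuclear respiratory factor 1 (gene ID 312195), which is a different gene from Nfe2l1 and Nfe2l2.

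Upstream sequences are shown for both receptors, since the results turn on them, and for Ppargc1a and Tfam, the other genes with a motif match. They are RefSeq sequences of build GRCr8, 250 bases ending just before the annotated transcription start, 5′ to 3′ on the strand of the gene. All 5 genes matched the RefSeq table, with 4 start sites for Esrrg and 1 each for the others. Capitals mark a match to 1 of 4 motifs, searched on both strands in windows of 300 bases (250 before and 50 after the start): the half-site of estrogen-related receptors AAGGTCA, the NRF1 core GCATGCGC, the ETS site CCGGAAGT of GABP (also called NRF2) and the cAMP response element TGACGTCA.
Esrrg, first start site, chr13:101744485-101744734, plus strand: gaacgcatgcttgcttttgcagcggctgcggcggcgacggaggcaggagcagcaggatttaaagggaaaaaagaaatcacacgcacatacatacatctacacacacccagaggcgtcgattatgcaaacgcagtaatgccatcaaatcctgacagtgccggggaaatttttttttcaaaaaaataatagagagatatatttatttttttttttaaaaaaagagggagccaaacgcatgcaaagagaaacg
Esrra, chr1:213543306-213543555, minus strand: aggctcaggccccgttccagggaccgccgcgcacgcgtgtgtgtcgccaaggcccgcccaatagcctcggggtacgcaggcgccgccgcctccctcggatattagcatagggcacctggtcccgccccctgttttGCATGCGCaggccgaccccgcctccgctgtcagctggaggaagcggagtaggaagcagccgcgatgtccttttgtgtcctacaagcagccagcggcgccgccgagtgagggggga
Ppargc1a, chr14:63634058-63634307, plus strand: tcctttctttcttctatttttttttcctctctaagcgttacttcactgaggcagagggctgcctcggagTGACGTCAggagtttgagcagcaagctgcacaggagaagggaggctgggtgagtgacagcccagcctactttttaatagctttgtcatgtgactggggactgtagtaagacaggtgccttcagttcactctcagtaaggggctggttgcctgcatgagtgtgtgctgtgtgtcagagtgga
Tfam, chr20:17355123-17355372, plus strand: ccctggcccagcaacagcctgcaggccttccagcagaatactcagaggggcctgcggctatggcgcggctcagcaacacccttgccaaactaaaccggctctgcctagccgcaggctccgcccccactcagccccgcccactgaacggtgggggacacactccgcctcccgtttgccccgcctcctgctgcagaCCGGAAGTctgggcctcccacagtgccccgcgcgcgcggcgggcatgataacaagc

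The Esrra window held the NRF1 core, beginning 115 bases before the start site (-115). The Ppargc1a window held the cAMP response element at -181, and the Tfam window the ETS site at -56. None of the 4 Esrrg windows and not the Nrf1 window held any of the 4 motifs. Of 33469 such windows over all annotated genes, 2.47% held the NRF1 core, 1.83% the cAMP response element, 3.81% the ETS site and 4.61% the half-site. A match here describes letters in a window and is not a measured binding site.

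Library totals were 289529 to 2265164 counts in the cortex and 267976 to 918820 in the colon, so the genes described rest on few reads: Nrf1 had 5 to 39 counts in cortex libraries and Esrrg 0 to 47 in colon libraries. A count of 0 allows up to 11.2 CPM (counts scaled to a common library total) in the shallowest library, taking 3 counts as the limit, which covers counting error only. In colon HS replicate 3, the library with the Esrrg count of 0, that limit was 7.21 CPM. The summed level of 8 proximal tubule markers was 6924 to 10620 CPM in the cortex and 0 to 149 CPM in the colon, and that of 6 surface colonocyte markers 64.5 to 115 CPM and 6701 to 16964 CPM, so both tissue labels matched their markers. Colon HS replicates 3 and 4 stood apart in leukocyte markers, with 12147 and 13654 CPM against 867 to 4549 CPM in the other colon libraries. Colon HS replicate 3 also had 163 CPM of 6 kidney principal cell genes, where the other colon libraries had at least 1419 CPM. Smooth muscle markers (6 of 6 detected) split the colon libraries in another way. They summed to 2669 to 15339 CPM in NC, 1840 to 23130 CPM in HS and 3091 to 5700 CPM in CAL. The libraries at 12529 CPM or more were NC replicates 2, 3 and 5 and HS replicates 2 and 5. The part of smooth muscle in the colon levels of the 5 genes was not tested. Replicates are separate samples per the labels, and nothing given says that they are separate animals, so each p measures the spread between these samples. In bulk tissue, fewer cells of a type and less RNA per cell cannot be told apart.

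**Figure D1:**
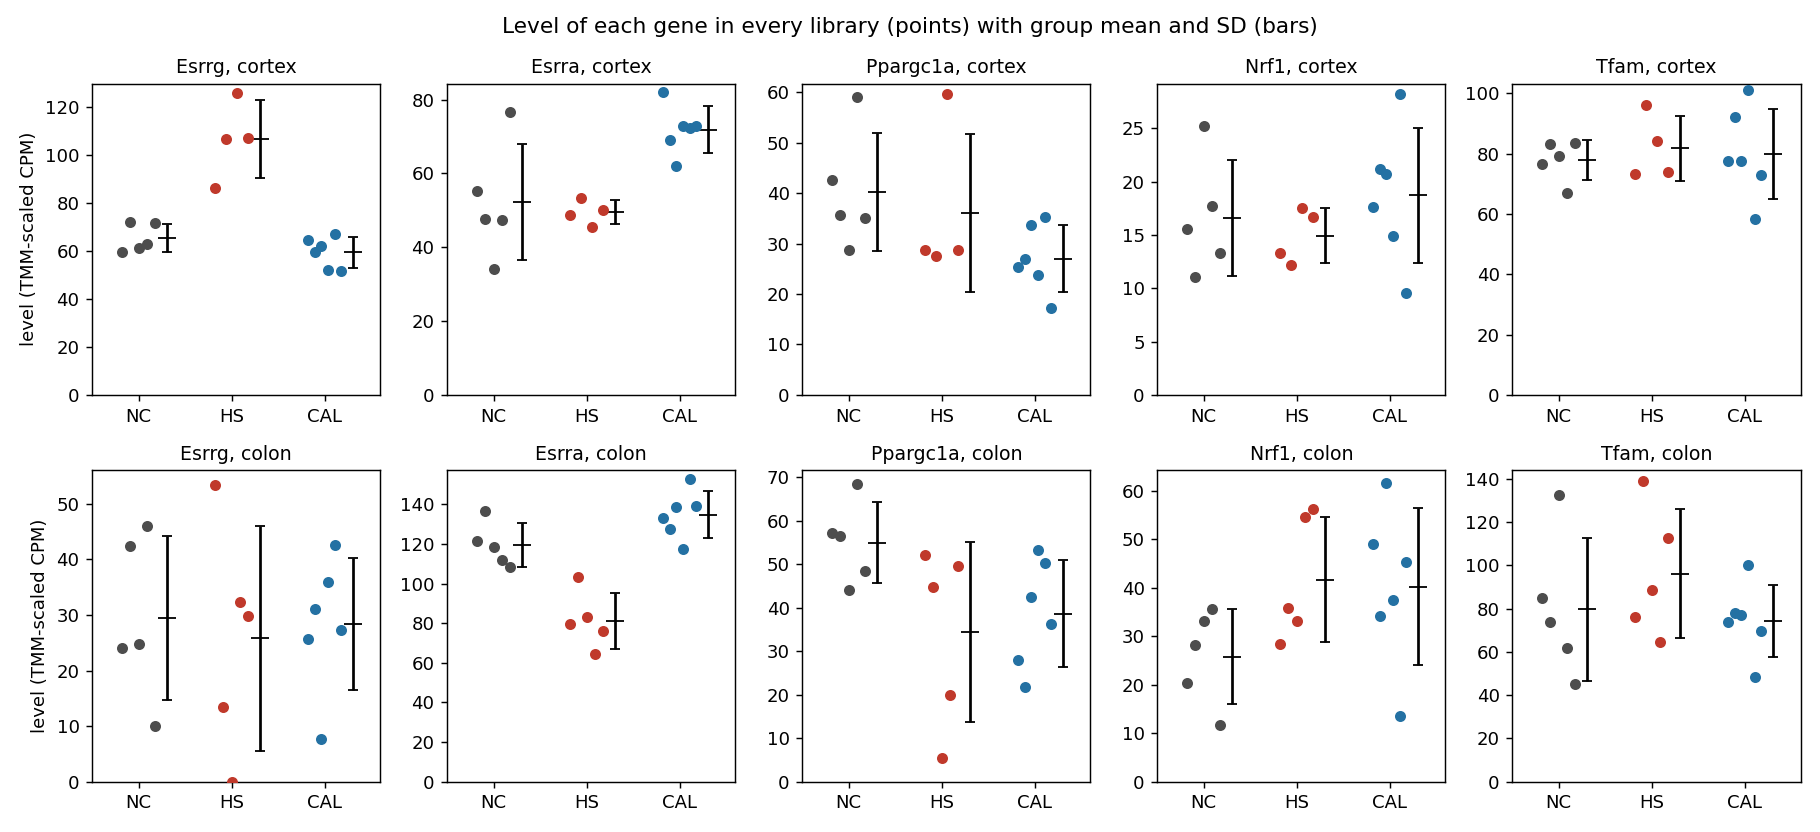
Level of each of the 5 genes in every library (points, TMM-scaled CPM on axes that start at 0) with the group mean and SD (bars), for kidney cortex (upper panels) and colon (lower panels) in the NC, HS and CAL groups. The 4 HS cortex points of Esrrg, from 86.4 to 126 CPM, lie above every NC and CAL point, and the 5 HS colon points of Esrra, from 64.5 to 103 CPM, lie below every NC and CAL point. How many of all tested genes separate in this way was not counted, and the genes were chosen from these same libraries.

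Esrrg was higher in the high-salt cortex than in the control cortex, and lower again with calcitriol. Its levels, as CPM after TMM scaling (a trimmed-mean correction of library size), were 59.5, 72.2, 61.2, 63.1 and 71.7 in NC replicates 1 to 5 and 86.4, 107, 126 and 107 in HS replicates 1 to 4. In the 6 CAL libraries the lowest was 51.8, the median 60.8 and the highest 67.1 CPM. Every HS library lay above every NC and every CAL library, while the NC and CAL ranges overlapped. How many of all tested genes separated in this way was not counted, here or for the genes below.

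The Esrrg means were 65.6 ± 5.99 CPM in NC (SD over libraries, n = 5), 107 ± 16.2 CPM in HS (n = 4) and 59.5 ± 6.43 CPM in CAL (n = 6). Between HS and NC the log2 fold change of Esrrg was 0.68 (SE 0.16, 95% interval 0.36 to 1.0), a 1.603-fold higher level, and the adjusted p of edgeR's quasi-likelihood test was 0.00857. In that comparison 11.0% of the 7524 tested cortex genes passed the threshold of 0.05 and 151 genes had a smaller p. Esrrg was the 1 gene of the 5 that passed.

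Between CAL and HS the log2 fold change of Esrrg was -0.82 (SE 0.15, 95% interval -1.12 to -0.51), and the adjusted p of edgeR's quasi-likelihood test was 0.0141. There only 0.758% of the tested cortex genes passed, and 4 genes had a smaller p than Esrrg. It was again the 1 gene of the 5 past the threshold. Without HS replicate 2, whose Esrrg level was 107 CPM, the adjusted p was 0.0697, the fold change was still -0.82, and 2 cortex genes passed in place of 57. Between CAL and NC the log2 fold change was -0.13 (SE 0.14, 95% interval -0.43 to 0.16, edgeR quasi-likelihood adjusted p = 0.733). In that comparison 0 of 7524 cortex genes passed edgeR, 892 had an unadjusted p under 0.05 and DESeq2 called 28.

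Because the HS libraries enter both comparisons, the higher level against NC and the lower level in CAL are not independent of each other. Of all marker lists summed in the cortex, only 1 set the HS libraries apart from both other groups, and not every list is given here. Proximal tubule markers (8 of 8 detected) overlapped, at 7471 to 10620 CPM in NC, 7529 to 8903 CPM in HS and 6924 to 9805 CPM in CAL. Erythrocyte markers (6 genes, all detected) summed to 3809 to 19758 CPM in NC and 3598 to 6787 CPM in CAL, but only to 956 to 1735 CPM in HS. Markers of the distal convoluted tubule (3 of 4 detected, Pvalb at 0 in all 15 cortex libraries) summed to 523 to 730 CPM in NC, against 998 to 1658 CPM in HS, with 513 to 2025 CPM in CAL, so HS lay above NC but within the CAL range. Within that list Calb1, a cytosolic calcium-binding protein, held nearly all of the difference. It rose between NC and HS by 1.32 (edgeR quasi-likelihood adjusted p = 0.00534), whereas Slc12a3, the thiazide-sensitive sodium chloride cotransporter that defines the segment, was at 67.9 ± 19.1 CPM in NC and 67.7 ± 11.9 CPM in HS (log2 fold change -0.02, adjusted p = 0.978). Trpm6, the magnesium channel of that segment, was at 13.0 ± 3.63 and 15.7 ± 7.02 CPM. Thick ascending limb markers (6 of 6 detected) summed to 6037 to 9908 CPM in NC, against 5010 to 8220 CPM in HS, with 3333 to 7611 CPM in CAL, and all 3 groups overlapped. The part of these cell populations in the Esrrg difference was not tested.

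In the colon Esrrg was low and scattered. Its levels were 24.0, 42.4, 24.8, 46.1 and 10.02 CPM in NC and 53.3, 13.5, 0, 32.3 and 29.8 CPM in HS, with a low of 7.72, a median of 29.2 and a high of 42.6 CPM in CAL. The HS libraries included both the highest value of the colon and the only count of 0, which fell on HS replicate 3, one of the libraries that stood apart. All 3 groups overlapped.

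The Esrrg log2 fold change in the colon was -0.13 between HS and NC (SE 0.53, 95% interval -1.23 to 0.97), 0.10 between CAL and HS (SE 0.52) and -0.03 between CAL and NC (SE 0.50), and edgeR's quasi-likelihood test gave adjusted p of 0.977, 0.968 and 0.9999. In these 3 colon comparisons 0, 1 and 0 of the 7217 tested genes passed edgeR (0%, 0.0139% and 0%), none of them a gene described here, and 614, 758 and 278 had an unadjusted p under 0.05. DESeq2 called 15, 11 and 0 genes, edgeR with no filter on low counts 59, 66 and 1, and without HS replicate 1 the count for CAL against HS was 14. The Esrrg intervals reach past the cortex value of 0.68 between HS and NC, so a difference of that size cannot be told from none in these colon libraries. The tissue difference of the high-salt change (colon minus cortex) was -0.75 for Esrrg (SE 0.52, adjusted p = 0.556) and that of the calcitriol change 0.89 (SE 0.51, adjusted p = 0.592), by edgeR quasi-likelihood over 9128 genes. Neither passed, so the data do not show that Esrrg responded differently in the 2 tissues.

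Esrra, the closest relative of Esrrg measured well here, followed another pattern. Its cortex levels were 55.3, 47.6, 34.2, 47.3 and 76.7 CPM in NC and 48.8, 53.4, 45.6 and 50.1 CPM in HS, and in CAL the lowest was 62.0, the median 72.6 and the highest 81.9 CPM. The HS libraries lay within the NC range. Every CAL library lay above every HS library, and NC replicate 5, at 76.7 CPM, reached into the CAL range.

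Cortex means of Esrra were 52.2 ± 15.7 CPM in NC, 49.5 ± 3.24 CPM in HS and, in CAL, 71.9 ± 6.45 CPM. The log2 fold change was -0.06 between HS and NC (SE 0.20, 95% interval -0.48 to 0.35), 0.54 between CAL and HS (SE 0.19, 95% interval 0.15 to 0.92) and 0.47 between CAL and NC (SE 0.17, 95% interval 0.13 to 0.81). By edgeR's quasi-likelihood test the adjusted p were 0.886, 0.159 and 0.265. None passed over all tested genes. Between CAL and HS the unadjusted p of that test was 0.00825, and 390 of the 7524 tested cortex genes had a smaller p.

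The colon showed the wider separation of Esrra. Its levels were 122, 137, 119, 112 and 109 CPM in NC and 79.4, 103, 82.9, 64.5 and 76.2 CPM in HS, and in CAL the lowest was 117, the median 136 and the highest 153 CPM. All 5 HS libraries lay below all NC and all CAL libraries, whereas NC and CAL overlapped. The share of all tested colon genes that separated in this way was not counted, so this describes the libraries only.

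Colon means of Esrra were 119 ± 10.96 CPM in NC, 81.3 ± 14.1 CPM in HS and, in CAL, 135 ± 11.997 CPM. The log2 fold change was -0.55 between HS and NC (SE 0.18, 95% interval -0.93 to -0.18, unadjusted p = 0.00570) and 0.73 between CAL and HS (SE 0.17, 95% interval 0.36 to 1.09, unadjusted p = 4.42e-04). By edgeR's quasi-likelihood test the adjusted p were 0.438 and 0.213, so neither passed over the 7217 genes tested. Genes with a smaller p numbered 91 between HS and NC and 14 between CAL and HS. Without HS replicates 3 and 4 together the values were -0.47 and 0.64, with adjusted p of 0.750 and 0.610. Between CAL and NC the log2 fold change of Esrra was 0.17 (SE 0.17). Summed surface colonocyte markers (6 of 7 listed genes in the table, all detected) were 10513 to 13127 CPM in NC, against 6701 to 12061 CPM in HS, with 8706 to 16964 CPM in CAL, so the groups overlapped. Erythrocyte markers (6 of 6 detected) summed to 65 to 389 CPM in HS, below the 448 to 2563 CPM of every NC library, and to 245 to 1959 CPM in CAL. The list of kidney principal cell genes (5 of 6 detected, Avpr2 at 0 in all colon libraries) summed to 163 to 2481 CPM in HS. That was below the 2551 to 3247 CPM of every CAL library, with 1419 to 3649 CPM in NC. The NC median of this list was higher in the colon (2858 CPM) than in the cortex (987 CPM). In the colon it is therefore given as a gene list and not as a cell type. The part of cell composition in the Esrra levels was not tested.

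In the RefSeq annotation Esrra overlaps Trmt112, a gene for a methyltransferase cofactor, and the library kit does not mark strand, so reads of the overlap cannot be told apart. Trmt112 had log2 fold changes of the opposite sign to Esrra in the colon, 0.56 between HS and NC (adjusted p = 0.548) and -0.46 between CAL and HS (adjusted p = 0.508, edgeR quasi-likelihood). In the cortex the Trmt112 values were -0.19 and -0.13 for the same comparisons. None of these passed.

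**Figure D2:**
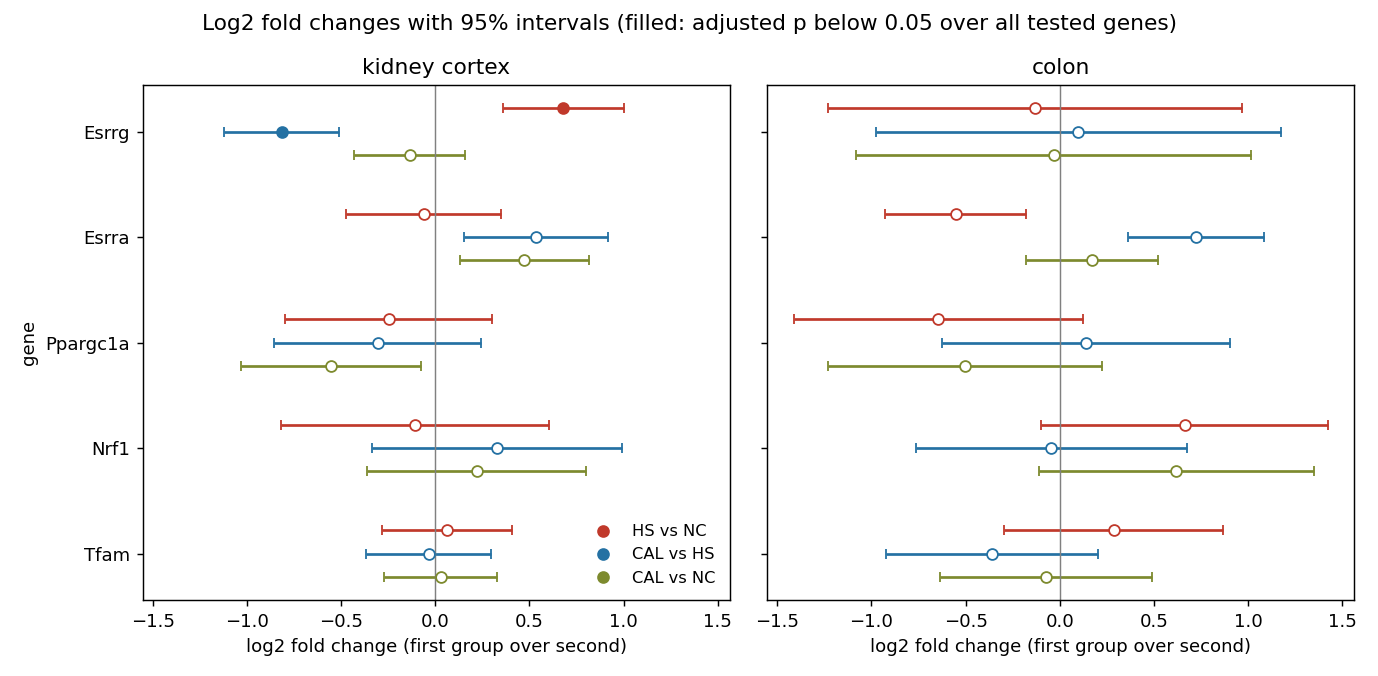
Log2 fold change of each gene (points) with its 95% interval (bars) for HS against NC, CAL against HS and CAL against NC in kidney cortex (left) and colon (right); filled points had an edgeR adjusted p below 0.05 over all tested genes. The 2 filled points are the Esrrg values of 0.68 and -0.82 in the cortex, and the widest intervals belong to Esrrg in the colon.

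The ratio of Esrra to Esrrg counts within a library needs no scaling between libraries, and it was set against itself across the cortex groups. There were 0.929, 0.659, 0.559, 0.750 and 1.07 Esrra counts per Esrrg count in NC, and 0.564, 0.500, 0.361 and 0.467 in HS. In CAL the lowest ratio was 1.0, the median 1.21 and the highest 1.41. Every CAL library had a higher ratio than every HS library, HS and NC met at 0.564 and 0.559, and CAL and NC overlapped through NC replicate 5. The means were 0.793 ± 0.206, 0.473 ± 0.0848 and 1.22 ± 0.168 (n = 5, 4 and 6). No test was made of the ratio, since both genes were among those chosen from these data. In the colon the ratio ran from 2.43 to 10.8 in NC, from 1.49 to 7.67 in the 4 HS libraries with an Esrrg count and from 3.26 to 18 in CAL, with all groups overlapping.

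**Figure D3:**
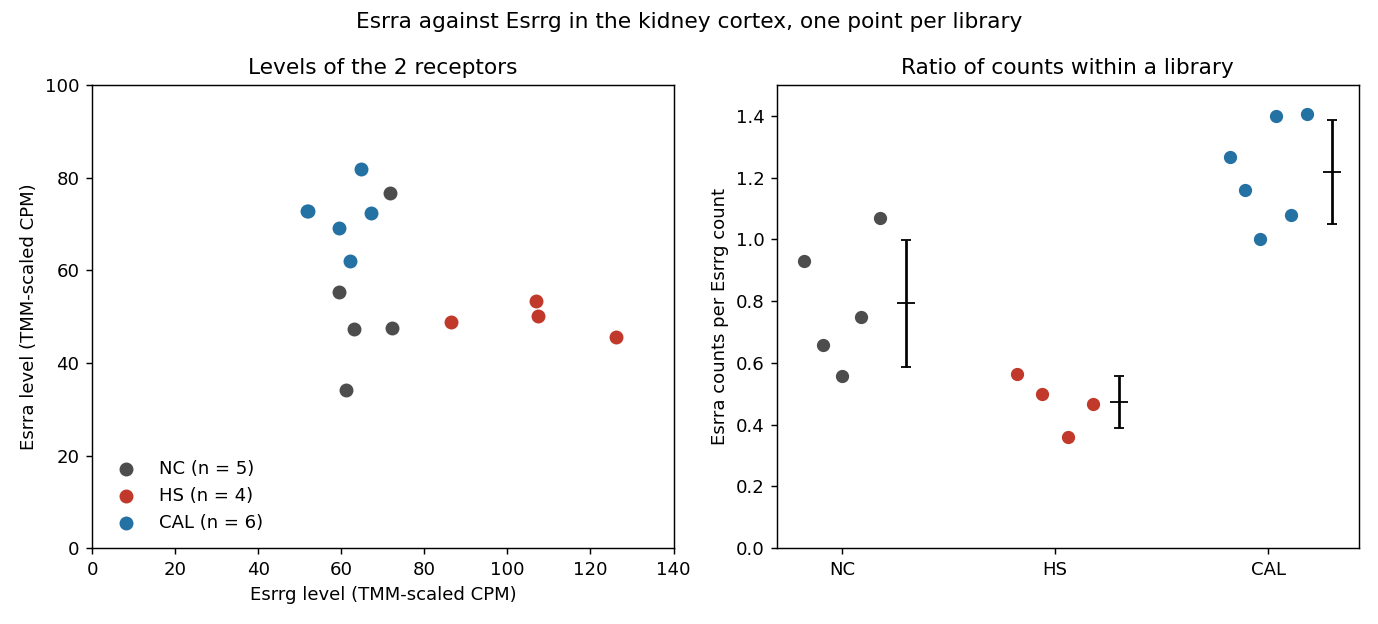
Left, Esrra level against Esrrg level (both TMM-scaled CPM) with 1 point per cortex library. Right, Esrra counts per Esrrg count in each cortex library with the group mean and SD (bars): HS libraries lie at 0.361 to 0.564 and CAL libraries at 1.0 to 1.41.

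Esrrb, the remaining receptor of the family, had 0 to 3 counts in each cortex library and 0 in all 16 colon libraries, and was not tested. The PGC-1 relative Ppargc1b had 1 to 14 counts per library and also missed the filter, as did the muscle-enriched coregulator Perm1, with at most 1 count in any library.

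The coactivator Ppargc1a was spread widely within groups. Its cortex levels were 42.5, 35.7, 28.8, 59.1 and 35.0 CPM in NC and 28.8, 27.5, 59.6 and 28.6 CPM in HS, with a low of 17.3, a median of 26.1 and a high of 35.3 CPM in CAL. HS replicate 3 stood far above the other 3 HS libraries on 17 counts. In 4 of 6 CAL libraries Ppargc1a lay below the lowest NC library, and the groups overlapped.

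Cortex means of Ppargc1a were 40.2 ± 11.6, 36.1 ± 15.7 and 27.0 ± 6.64 CPM in NC, HS and CAL. The log2 fold change was -0.25 between HS and NC (SE 0.27), -0.30 between CAL and HS (SE 0.27) and -0.55 between CAL and NC (SE 0.23, 95% interval -1.03 to -0.07), and edgeR's quasi-likelihood test gave adjusted p of 0.578, 0.630 and 0.346. None passed.

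In the colon Ppargc1a was at 57.2, 56.6, 44.1, 68.4 and 48.4 CPM in NC and at 52.2, 44.9, 5.53, 19.9 and 49.7 CPM in HS, with a low of 21.8, a median of 39.4 and a high of 53.2 CPM in CAL. The lowest pair of values was from HS replicates 3 and 4, the libraries with the high leukocyte markers, and the other 3 HS libraries lay within the NC range. The log2 fold change between HS and NC was -0.65 (SE 0.37, edgeR quasi-likelihood adjusted p = 0.651) and -0.17 without those replicates (adjusted p = 0.978). For CAL against HS it was 0.14 (SE 0.37, adjusted p = 0.927) with all libraries and -0.33 without them. The part of leukocytes in the Ppargc1a levels was not tested. Between CAL and NC the value was -0.50 (SE 0.35, adjusted p = 0.9999).

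Nrf1 was the least counted of the 5 genes in the cortex. Its levels were 15.6, 11.0, 25.2, 17.7 and 13.3 CPM in NC, 13.3, 12.2, 17.5 and 16.7 CPM in HS, and from 9.59 through a median of 19.2 to 28.2 CPM in CAL. All groups overlapped. The log2 fold changes were -0.11 between HS and NC (SE 0.35, 95% interval -0.82 to 0.60), 0.33 between CAL and HS (SE 0.32) and 0.22 between CAL and NC (SE 0.28), and edgeR's quasi-likelihood test gave adjusted p of 0.914, 0.666 and 0.796.

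In the colon Nrf1 was at 20.3, 28.3, 33.1, 35.5 and 11.7 CPM in NC and at 28.4, 35.9, 33.2, 54.6 and 56.3 CPM in HS, and CAL ran from 13.5 through a median of 41.5 to 61.7 CPM. All 5 HS libraries and 5 of 6 CAL libraries were above the NC mean of 25.8 ± 9.79 CPM, with overlap in both comparisons. The log2 fold changes were 0.66 between HS and NC (SE 0.37, edgeR quasi-likelihood adjusted p = 0.641), -0.04 between CAL and HS (SE 0.35, adjusted p = 0.976) and 0.62 between CAL and NC (SE 0.35, adjusted p = 0.9999). None passed.

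Tfam varied little between libraries of the control cortex. Its levels there were 76.6, 83.3, 79.2, 67.0 and 83.4 CPM in NC and 73.1, 96.1, 84.1 and 74.0 CPM in HS, with a low of 58.3, a median of 77.5 and a high of 101 CPM in CAL. The log2 fold changes were 0.06 between HS and NC (SE 0.17, 95% interval -0.28 to 0.41), -0.03 between CAL and HS (SE 0.16, 95% interval -0.37 to 0.30) and 0.03 between CAL and NC (SE 0.15), and edgeR's quasi-likelihood test gave adjusted p of 0.844, 0.949 and 0.962. The 95% intervals of Tfam did not reach 0.68, the Esrrg value, in any cortex comparison.

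In the colon Tfam was at 84.9, 73.9, 132, 61.9 and 45.1 CPM in NC and at 76.0, 139, 88.5, 64.5 and 113 CPM in HS, and CAL ran from 48.4 through a median of 75.4 to 100 CPM. NC and HS libraries both spread widely, and all groups overlapped. The log2 fold changes were 0.29 (SE 0.28), -0.36 (SE 0.27) and -0.07 (SE 0.27) for HS against NC, CAL against HS and CAL against NC, and edgeR's quasi-likelihood test gave adjusted p of 0.833, 0.685 and 0.9999.

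Between tissues the 2 receptors were ordered in opposite ways. On the common scale of all 31 libraries, the control levels of Esrrg were 67.6 ± 7.18 CPM in the cortex and 28.1 ± 14.2 CPM in the colon, and those of Esrra 53.8 ± 16.0 CPM and 114 ± 10.4 CPM (SD, n = 5 each). Neither gene had overlapping control ranges. The log2 difference of colon from cortex was -1.23 for Esrrg (SE 0.35, adjusted p = 0.00323) and 1.08 for Esrra (SE 0.17, adjusted p = 1.37e-06) by edgeR quasi-likelihood. In that comparison 58.8% of 9128 tested genes passed, so 2 of these 5 genes is a share near the background. Ppargc1a (0.36, adjusted p = 0.314), Nrf1 (0.55, adjusted p = 0.157) and Tfam (-0.12, adjusted p = 0.652) did not pass. Trmt112, which overlaps Esrra, was lower in the colon by a log2 difference of -0.71 (adjusted p = 0.00381).

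Ordered over the 6 groups on that common scale, Esrrg was lowest in the colon at 24.5 (HS), 27.4 (CAL) and 28.1 CPM (NC), then 61.0 CPM in CAL cortex, 67.6 CPM in NC cortex and 107 CPM in HS cortex. The 3 colon groups did not differ beyond their spread, nor did CAL and NC cortex. Esrra was ordered from HS cortex (49.6 CPM) through NC cortex (53.8), CAL cortex (73.7), HS colon (76.8) and NC colon (114) to CAL colon (130 CPM), and of these neighbours only HS and NC colon did not overlap. For Ppargc1a (27.7 to 52.4 CPM), Nrf1 (14.98 to 39.3 CPM) and Tfam (71.8 to 90.8 CPM) all neighbouring groups overlapped.

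The difference between tissues of a diet effect passed for none of the 5 genes. For HS against NC, colon minus cortex, the log2 values were -0.46 for Esrra (SE 0.26, adjusted p = 0.447), -0.38 for Ppargc1a (adjusted p = 0.775), 0.80 for Nrf1 (SE 0.51, adjusted p = 0.511) and 0.26 for Tfam (adjusted p = 0.780), with 2 of 9128 genes (0.0219%) past the threshold by edgeR quasi-likelihood. That count was 55 with DESeq2, and 93, 26 and 42 without colon HS replicate 1, 2 or 5. For CAL against HS they were 0.19 for Esrra, 0.45 for Ppargc1a, -0.37 for Nrf1 and -0.32 for Tfam (adjusted p = 0.896, 0.807, 0.857 and 0.799), and 0 of 9128 genes passed (878 at an unadjusted p under 0.05, 17 by DESeq2, and 54 by edgeR without colon HS replicate 1).

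The other genes of the circuit were taken from 3 textbook lists and are described by counts and medians. Of 20 relatives, partners and upstream regulators of the receptors and PGC-1 alpha, 9 were tested in the cortex. None of the 9 passed for HS against NC with edgeR's quasi-likelihood test. An unadjusted p under 0.05 was found for 4 of them, and for 2055 of all 7524 tested cortex genes. The median log2 fold change of the 9 was 0.38, with 8 of 9 values positive. Over all tested genes the median was -0.01 and 49.2% were positive. The smallest p belonged to Ppard, a fatty acid-sensing nuclear receptor (-1.26, adjusted p = 0.0590), the corepressors Ncor1 (0.39, adjusted p = 0.0697) and Nrip1 (0.84, adjusted p = 0.0900) and the coactivator Ncoa1 (0.74, adjusted p = 0.130). Ppard rested on 0 to 23 counts per NC or HS library. For CAL against HS the list's median was -0.33, with 2 of 9 values positive and none past the threshold. Over all tested genes the median was -0.008 and 49.0% were positive. By edgeR quasi-likelihood Ncor1 was at -0.33 (adjusted p = 0.221) and Ppard at 1.05 (adjusted p = 0.224). Prkaa2, a catalytic subunit of AMP-activated kinase, was at -0.49 (adjusted p = 0.263) and Nrip1 at -0.64 (adjusted p = 0.289).

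Of 19 genes for transcription, replication and packaging of mitochondrial DNA, 15 were tested in the cortex and 1 passed between HS and NC, a smaller share than the 11.0% of all tested cortex genes, with a list median of 0.09. The list is therefore not set apart by its count. This was Tfb2m, the transcription factor that melts the mitochondrial promoter together with Tfam. Tfb2m was at 22.7, 28.9, 32.4, 19.7 and 15.01 CPM in NC and 37.7, 67.1, 38.6 and 40.6 CPM in HS, with no overlap, and rose by 0.96 (SE 0.26, edgeR quasi-likelihood adjusted p = 0.0205). Its HS libraries had 11 to 44 counts, and without HS replicate 2, the highest, the adjusted p was 0.133. Next were the elongation factor Tefm (0.66, adjusted p = 0.0791), the single-stranded DNA-binding protein Ssbp1 (0.46, adjusted p = 0.126) and the termination factor family member Mterf3 (0.53, adjusted p = 0.127). Polrmt, the mitochondrial RNA polymerase, was at -0.02. Between CAL and HS none of the 15 passed (median -0.13, beside -0.008 over all tested genes). Tefm was at -0.60 (edgeR quasi-likelihood adjusted p = 0.203), Slirp at -0.30, Mterf3 at -0.32 and Ssbp1 at -0.27.

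Of 22 textbook targets of the receptors, PGC-1 alpha and Nrf1, 20 were tested in the cortex. For HS against NC 2 rose and 1 fell, by edgeR quasi-likelihood, with a list median of 0.07 and 11 of 20 values positive. These 3 of 20 are a share near the 11.0% of all tested cortex genes that passed, so the genes are given as single values and not as a result of the list. Tomm20, the outer membrane receptor for imported proteins, was at 306, 308, 220, 237 and 299 CPM in NC and at 443, 459, 438 and 426 CPM in HS, without overlap. It rose by 0.68 (SE 0.13, adjusted p = 0.00225) and passed with each library left out in turn. Cycs, which encodes cytochrome c, was at 368 ± 121 CPM in NC and 656 ± 191 CPM in HS and rose by 0.81 (SE 0.21, adjusted p = 0.0171, and 0.0989 without HS replicate 1). Cs, citrate synthase, was at 201 ± 30.7 CPM in NC and 145 ± 19.6 CPM in HS and fell by 0.46 (SE 0.14, adjusted p = 0.0386). That call was lost with 5 of the 15 libraries left out, up to 0.121, and with other filters on low counts. Idh3a, another enzyme of the citric acid cycle, was at 0.40 (adjusted p = 0.0656).

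Between CAL and HS none of the 20 targets passed in the cortex by edgeR quasi-likelihood. An unadjusted p under 0.05 was found for 2 of the 20, and for 1219 of all 7524 tested cortex genes. The list's median was -0.08 with 7 of 20 values positive, beside -0.008 and 49.0% over all tested genes. Tomm20 (-0.36, adjusted p = 0.151), the complex I subunit Ndufs1 (-0.33, adjusted p = 0.184), Idh3a (-0.28, adjusted p = 0.313) and Acadm, a fatty acid oxidation enzyme (-0.20, adjusted p = 0.358), had the smallest p. In CAL against NC no gene of the 3 lists passed in the cortex, with medians of 0.20, 0.06 and -0.001.

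**Figure D4:**
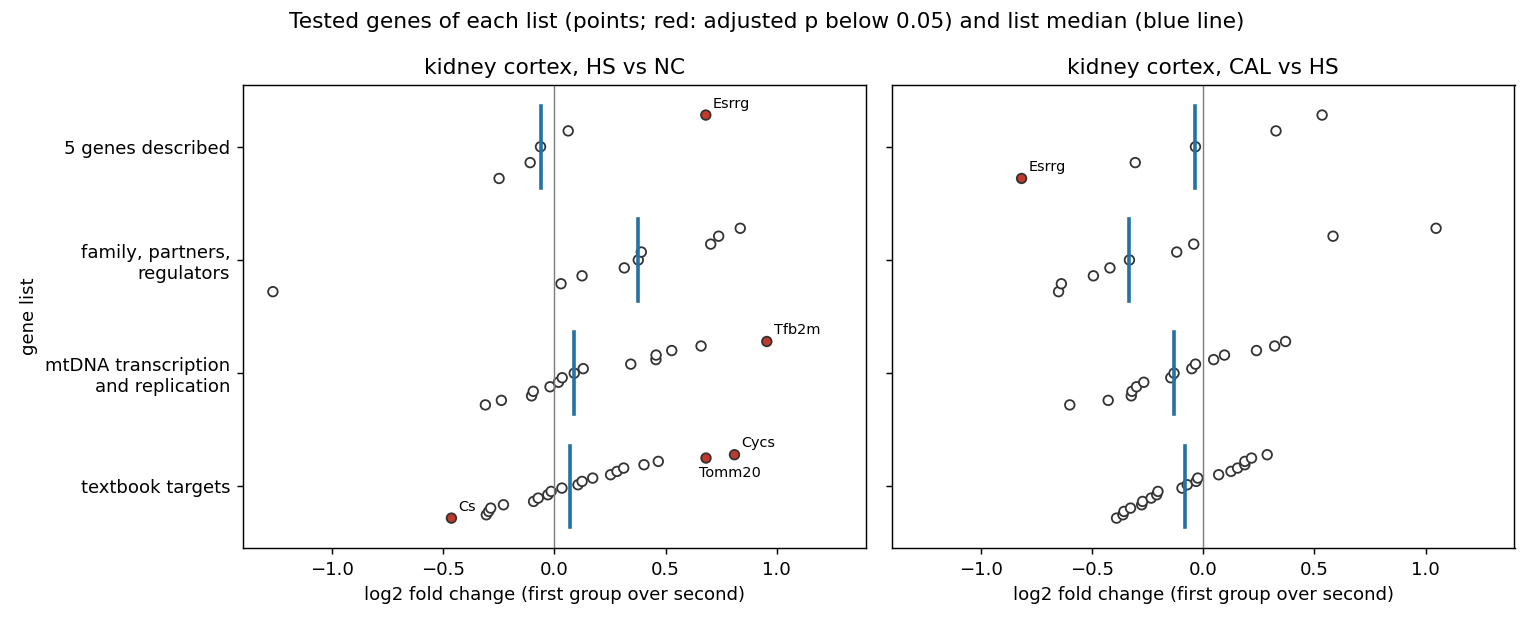
Log2 fold changes in the kidney cortex for HS against NC (left) and CAL against HS (right); each point is a tested gene of the list named on the vertical axis, red where the edgeR adjusted p was below 0.05 over all tested genes, and the blue line is the list median. Red points in the left panel are Esrrg, Tfb2m, Cycs, Tomm20 and Cs, and the only red point in the right panel is Esrrg at -0.82.

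In the colon no gene of the 3 lists passed in any comparison of the diet groups. Between HS and NC the medians were -0.14 (10 tested), 0.02 (10 tested) and -0.10 (19 tested), beside 0.04 over all tested genes, and between CAL and HS 0.09, -0.08 and 0.05, beside -0.03. Tomm20 and Cycs, the targets higher in the HS cortex, were at -0.01 (adjusted p = 0.996) and -0.55 (adjusted p = 0.635) in the HS colon by edgeR quasi-likelihood.

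Between control tissues, 12 of 20 targets were lower in the colon than in the cortex and 2 were higher by edgeR quasi-likelihood, with a median of -0.75 beside 0.06 over all 9128 tested genes. Among the targets with the smallest p were Ndufs1 (-1.32), Idh3a (1.26) and Acadm (-1.18), each with an adjusted p of at most 3.79e-07. Of the mitochondrial DNA genes 6 of 15 were lower and 1 higher (median -0.61), led by Lrpprc (-1.83), which stabilises mitochondrial messenger RNA, the polymerase subunit Polg2 (-1.58) and the protease Lonp1 (-1.50). Of the relatives and partners 6 of 11 were higher and 1 lower (median 0.84), led by Pparg, the adipocyte and colonocyte nuclear receptor (5.48, adjusted p = 2.51e-11). Over all 9128 tested genes 2591 were lower in the colon and 2774 were higher, which together make the 58.8% that differed.

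The genes whose levels over the libraries of a tissue were most like each gene's were found by Pearson's r of log2 CPM among genes with a mean of at least 20 counts. They are a description: libraries share depth and diet group, and no p is given. In the 15 cortex libraries Esrrg was most like Lman1 (r = 0.93), a cargo receptor of the early secretory pathway, Scamp1 (0.90) and Slc33a1 (0.89), an acetyl-CoA transporter of the endoplasmic reticulum, out of 5239 genes. After the group means were removed, the r of these 3 were 0.69, 0.62 and 0.59. Esrra was most like Gpx1, a glutathione peroxidase (0.87), Slc35c2 (0.81) and the podocyte actin-binding gene Synpo (0.80) in the cortex, with 0.75, 0.80 and 0.61 after the group means were removed.

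In the 16 colon libraries Ppargc1a was most like Zfp106 (r = 0.92), Rock2 (0.89), a kinase of actomyosin contraction, and Ppm1j (0.89). Esrrg was there most like Tmem63b (0.86), Mob2 (0.86) and Glul, glutamine synthetase (0.84), and Esrra most like Tmem128 (0.82), the apical polarity gene Crb3 (0.82) and Ciao2b (0.80). With the group means removed, these r were 0.86, 0.90 and 0.85 for Esrrg but 0.69, 0.61 and only 0.28 (Ciao2b) for Esrra. For Nrf1 the nearest genes were Sgpp2, Sh3bp5 and Cd2bp2 in the cortex (0.70 to 0.74) and Tns3, Ncbp1 and Stk38 in the colon (0.73 to 0.75). For Tfam they included Ifitm1 and Chd6 in the cortex (0.76 and 0.74) and were Ywhaq, Sfr1 and Cnih1 in the colon (0.74 to 0.76), and for Ppargc1a in the cortex Arfgap1, Sap30bp and Anapc15 (0.76 to 0.80).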

How the data were processed

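The 1 deposited table holds raw integer counts (reads assigned to each gene), to which the authors applied no normalisation. According to the submitters' processing notes the tools were FastQC 0.11.9, Trimmomatic 0.39, HISAT2 2.1.0 (genome build Rnor_6.0) and featureCounts 1.6.5. Which annotation and strand setting featureCounts used is not given in the sources used here. RNA was isolated with TRIzol, per the labels' protocols, and the library kit works by tagmentation, so strand is not marked.

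edgeR 4.0.16 (R 4.3.3) tested genes by quasi-likelihood after TMM scaling. Its low-count filter asked for the CPM that equals 10 counts at the median library total. A gene had to reach it in as many libraries as the smallest group holds, with at least 15 counts in total. Each tissue was fitted to its 3 groups, and all 31 libraries to 6 groups for differences between tissues. Adjusted p are Benjamini-Hochberg values over all tested genes, with a threshold of 0.05. SE were taken from the quasi-likelihood F, and 95% intervals use its t quantile. The test was first checked on simulated counts. Marker levels are CPM of all counts. Log2 CPM for likeness used a prior count of 2, and the 3 most like genes were named.

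The 5 genes and all lists were chosen with earlier results of these data known. Named genes were the 5, up to 4 tested genes per list and comparison with the smallest p, and the most like genes; Calb1, Slc12a3, Trpm6, Trmt112, Esrrb, Ppargc1b, Perm1 and Polrmt, and Cycs and Tomm20 in the colon, were named after their values were seen. Some genes that the rule would name are not reported here. Of 61 list entries 59 matched the table by symbol, and of 87 marker entries 84. Alternatives were DESeq2 1.42.0, edgeR with DESeq2's size factors, leaving the filter out, a filter of 1 CPM in at least 4 libraries, only the compared groups, limma 3.58.1 voom with library weights, a replicate block, thinning to the smallest total, the colon without HS replicates 3 and 4, and leaving out each library. No pair of libraries held identical values.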

Additional observations from a re-analysis of the deposited data

Results flagged for a closer look

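Ppargc1a in cortex HS replicate 3 stood far from the rest of its group, at 59.6 CPM against 27.5 to 28.8 CPM in the other 3 HS libraries. It rests on 17 counts in the shallowest cortex library (289529 counts). Its distance to the nearest library was 0.958 of the group's range, where Dixon's 95% limit is 0.829. In all 30 sets of gene, tissue and diet group were examined this way, and chance alone gives about 1 in 20. The log2 fold change of Ppargc1a between HS and NC in the cortex was between -0.48 and -0.09 with single libraries left out, and never passed.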

How the results depend on the processing

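Esrrg kept its call between HS and NC cortex with each of 15 libraries left out (adjusted p 0.00480 to 0.0270) and under 8 other settings (0.00469 to 0.0373). Between CAL and HS it kept its call in 14 of 15 and in 8 of 8 (0.00191 to 0.0472), and without HS replicate 2 the number of the 5 genes past the threshold went from 1 to 0 (range 0 to 1). The tissue differences of Esrrg and Esrra passed in all 14 settings each. Signs turned only in values that never passed, for which the cause was not tested. With the replicate block Esrra was at 0.016 (HS against NC) and Tfam at 0.039 (CAL against HS) in the cortex. Thinning put cortex Tfam at -0.033 (HS against NC) and -0.12 (CAL against NC). Without colon HS replicates 3 and 4, Esrrg was at 0.18 and -0.21, Ppargc1a at -0.33 and Nrf1 at 0.040 (CAL against HS), and the tissue differences of Ppargc1a at 0.066 and -0.017. Colon Nrf1 was at 0.0012 with no filter (CAL against HS) and colon Esrrg at 0.046 with voom (CAL against NC). With single libraries left out, HS against NC in the cortex ran from -0.17 to 0.11 for Esrra, -0.27 to 0.080 for Nrf1 and -0.027 to 0.13 for Tfam; Tfam ran from -0.11 to 0.058 (CAL against HS), -0.047 to 0.095 (CAL against NC) and, between tissues, -0.32 to 0.031. In the colon Esrrg ran from -0.68 to 0.16, -0.19 to 0.65 and -0.26 to 0.20 for the 3 comparisons, Ppargc1a from -0.11 to 0.39 and Nrf1 from -0.18 to 0.15 (CAL against HS), and Tfam from -0.22 to 0.17 (CAL against NC).

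Counts of all genes past the threshold moved more. Between HS and NC cortex, 831 became 408 when thinned and 324 to 961 with single libraries left out. Between CAL and HS cortex, 57 became 105 with DESeq2, 128 with no filter, 30 with the compared groups alone, 22 with the replicate block, 14 when thinned and 2 to 80 with single libraries left out. Between CAL and NC cortex, 0 became 83 with no filter, 28 with DESeq2, 7 with the filter of 1 CPM, 42 with the replicate block and 0 to 40 with single libraries left out, the highest without CAL replicate 6. In the colon, 0 became 15 with DESeq2 and 59 with no filter (HS against NC), and 1 became 11 and 66 (CAL against HS), with 0 to 14 when single libraries were left out, the highest without HS replicate 1. For the tissue difference of HS against NC, 2 became 55 with DESeq2, 20 with no filter, 25 with the replicate block and 0 to 93 with single libraries left out. For that of CAL against HS, 0 became 17, 8 and 0 to 54 with DESeq2, no filter and single libraries left out. Both were highest without colon HS replicate 1. In HS against NC cortex the 3 lists had 0 to 2, 0 to 3 and 1 to 7 genes past the threshold over the settings. Replicate numbers did not meet the bar for pairing, a correlation over 0.1 in every pair. That bar is strict, and missing it does not show that same-numbered libraries came from different animals. Deviations from the group means of same-numbered libraries correlated at -0.16 to 0.075 in the cortex and at -0.24 to 0.25 in the colon. In the colon 5 of 15 such pairs were above 0.1, against 17 of 70 pairs of other numbers. Between tissues they correlated at -0.034 to 0.18 (median 0.042, against -0.0073 for other numbers). The fit across tissues takes these libraries as independent. The replicate block changed no call of the 5 genes. Colon Esrrg had the widest 95% intervals of the 5 genes in all 3 colon comparisons, and its libraries spread from 0 to 53.3 CPM in HS. The part of depth in this was not tested. When libraries were thinned to the smallest total, colon Esrrg and cortex Nrf1 missed the low-count filter, so that setting gave no value for them.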
